A study of Homo sapiens with 6 samples.

Results

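After N2-heptynyl-dG treatment, 733 R-loop peaks lay at transcript ends or between genes and had no counterpart in untreated HEK293T cells. They were chosen by the measured overlap of the peak lists: a peak of the treated list was kept if it shared no base with a peak of the untreated list on the same strand, lay on chromosomes 1 to 22 or X, and had its midpoint outside every promoter window. Of the 733 peaks, 297 were terminal, with the midpoint no more than 100 bp before or 1000 bp after an annotated transcript end. The other 436 were intergenic, with the midpoint outside every annotated transcript and terminal window. The 733 peaks come from 11085 peaks of the treated list, 11021 of them on the chromosomes used. Of the 733, 367 lie on the plus and 366 on the minus strand. Promoter windows began 1000 bp before a transcript start and closed 100 bp after it, in GENCODE release 44 mapped to GRCh37.

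HEK293T is a transformed line from human embryonic kidney, and all cells were of the same wild-type (WT) genotype. The compared groups were cells given no nucleoside and cells given 10 μM N2-heptynyl-dG, a deoxyguanosine that carries an alkyne-ended chain on the N2 position, for 3 h. Both were then exposed to 5 mM N3-kethoxal for 10 min, and the labels name 2 spKAS-seq samples for each and 2 inputs of cells without the nucleoside. There was 1 peak list per condition, filed under replicate 1 and taken as the result of both replicates because the methods state that replicates were used together, so no value here has a spread between replicates. The lists give a chromosome, start, end and strand without height or p-value, and the depth behind a peak is unknown.

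An R-loop forms when RNA pairs with the DNA strand it was copied from and leaves the other strand unpaired. At the ends of genes, R-loops form where RNA polymerase II pauses beyond the polyadenylation signal, and helicases and exonucleases that act there help the polymerase to let go. Transcription that runs on past a gene end also yields RNA in sequence annotated as intergenic. In spKAS-seq, N3-kethoxal reacts with guanines of unpaired DNA, and the enriched strand is sequenced with its orientation kept. Which DNA strand the sign in the lists names is not given in the sources used here, and "same strand" below compares that sign with the annotation.

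The following stretches of GRCh37 sequence show what such peaks contain. Each runs 5′ to 3′ on the strand of its peak, lies outside all annotated exons, and was taken at the place in the peak with the most G in runs of 3 or more, which are in capitals. Those at TTYH3 and SEC63 come from terminal peaks on the strand of the gene with G in excess over C. The others come from peaks classed as intergenic by their midpoints, the widest and a tandem repeat. The midpoint of the widest peak, downstream of CTTNBP2NL, was 1205 bp from a transcript of WNT2B. The stretch shown from this peak lies nearer to that transcript than the midpoint does. It may thus lie in a promoter window, which was not tested.
TTYH3 end (chr7:2705051-2705200, plus strand): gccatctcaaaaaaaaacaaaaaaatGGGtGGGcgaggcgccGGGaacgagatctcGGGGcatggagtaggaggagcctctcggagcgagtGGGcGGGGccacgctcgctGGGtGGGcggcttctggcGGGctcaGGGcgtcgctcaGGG
SEC63 end (chr6:108188652-108188801, minus strand): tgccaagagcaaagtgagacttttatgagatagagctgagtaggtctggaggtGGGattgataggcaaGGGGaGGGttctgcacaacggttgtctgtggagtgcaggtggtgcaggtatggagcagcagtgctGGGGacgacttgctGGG
downstream of CTTNBP2NL (chr1:113008392-113008541, plus strand): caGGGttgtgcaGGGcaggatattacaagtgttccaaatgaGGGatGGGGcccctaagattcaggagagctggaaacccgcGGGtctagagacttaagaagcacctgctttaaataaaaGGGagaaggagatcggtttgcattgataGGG
chromosome 19 tandem repeat (chr19:57683432-57683581, plus strand): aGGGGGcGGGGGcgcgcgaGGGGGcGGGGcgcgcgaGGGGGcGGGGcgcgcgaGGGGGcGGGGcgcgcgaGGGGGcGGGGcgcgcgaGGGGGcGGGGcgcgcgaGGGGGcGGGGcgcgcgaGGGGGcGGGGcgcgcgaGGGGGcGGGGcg

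Peaks found only after treatment were hardly more numerous at these locations than peaks found only without it. Of 1183 terminal treated peaks, 25.1% had no untreated counterpart (95% Wilson interval 22.7% to 27.7%), and of 1510 intergenic treated peaks 28.9% (26.6% to 31.2%). Over all locations this background was 30.8% of treated and 25.4% of untreated peaks. In the opposite direction, 269 terminal and 411 intergenic peaks of the untreated list had no treated counterpart, 23.2% and 27.6% of their classes. The surplus of treated-only over untreated-only peaks was thus 28 at transcript ends and 25 between genes, against 559 in promoters and 204 in gene bodies.

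As a ratio, there were 1.10 treated-only per untreated-only peak at transcript ends and 1.06 between genes, against 1.51 in promoters and 1.25 in gene bodies. Terminal and intergenic peaks together were unmatched more often in the treated list by 1.54 percentage points, with a 95% Newcombe interval of -0.827 to 3.90 that includes 0. In promoters the same difference was 7.36 points (5.73 to 8.98) and in gene bodies 5.65 points (2.98 to 8.31). Since the overlap of the lists chose the peaks, these shares describe the choice and were not tested. Intervals here and below cover counting error over peaks only, and peaks are not replicates.

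**Figure D1:**
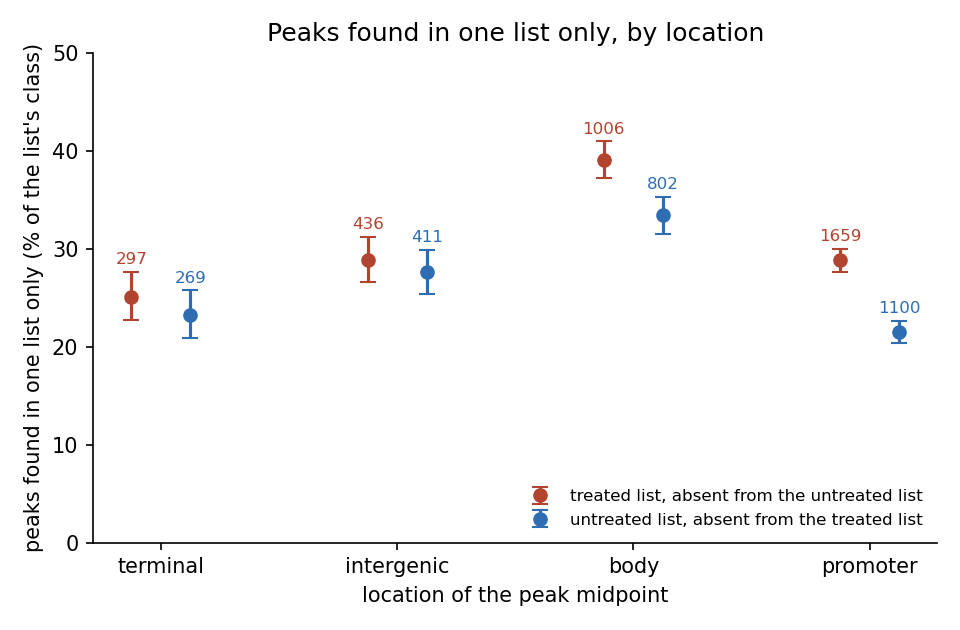
Share of the peaks of each location class that had no same-strand counterpart in the other list (y axis, percent), for the treated and the untreated list, with 95% Wilson intervals and the number of such peaks above each point. The shares of the lists lie close together at transcript ends (25.1% and 23.2%) and between genes (28.9% and 27.6%) and apart in promoters (28.8% and 21.5%).

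Treated-only peaks were narrower than shared ones, with a median width of 750 bp against 1000 bp for both locations together. Untreated-only peaks also had a median of 750 bp. Peak widths in the lists are multiples of 250 bp with few exceptions, and 137 of the 297 terminal and 199 of the 436 intergenic treated-only peaks had the width of 500 bp. Shared treated peaks had this width in 14.1% of terminal and 15.7% of intergenic cases. The share without a counterpart fell with width, from 52.3% of terminal treated peaks of 500 bp to 18 of 450 of those over 1000 bp. For intergenic peaks it fell from 54.1% to 6.66%. The untreated list showed a like fall, from 46.2% to 6.07% for terminal and from 48.4% to 9.02% for intergenic peaks. A wider peak has more bases that can overlap another, so the rule itself favours narrow peaks.

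The small surplus lay in the narrowest peaks. At 500 bp there were 137 treated-only and 110 untreated-only terminal peaks, and 199 and 152 intergenic ones. At 750 bp or more the numbers were 160 and 159 terminal, and 237 and 259 intergenic. Over 1000 bp, untreated-only peaks were the more numerous, with 18 treated-only and 31 untreated-only terminal peaks and 39 and 59 intergenic ones, although the intervals of the differences in share included 0 at each of these widths for both locations.

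**Figure D2:**
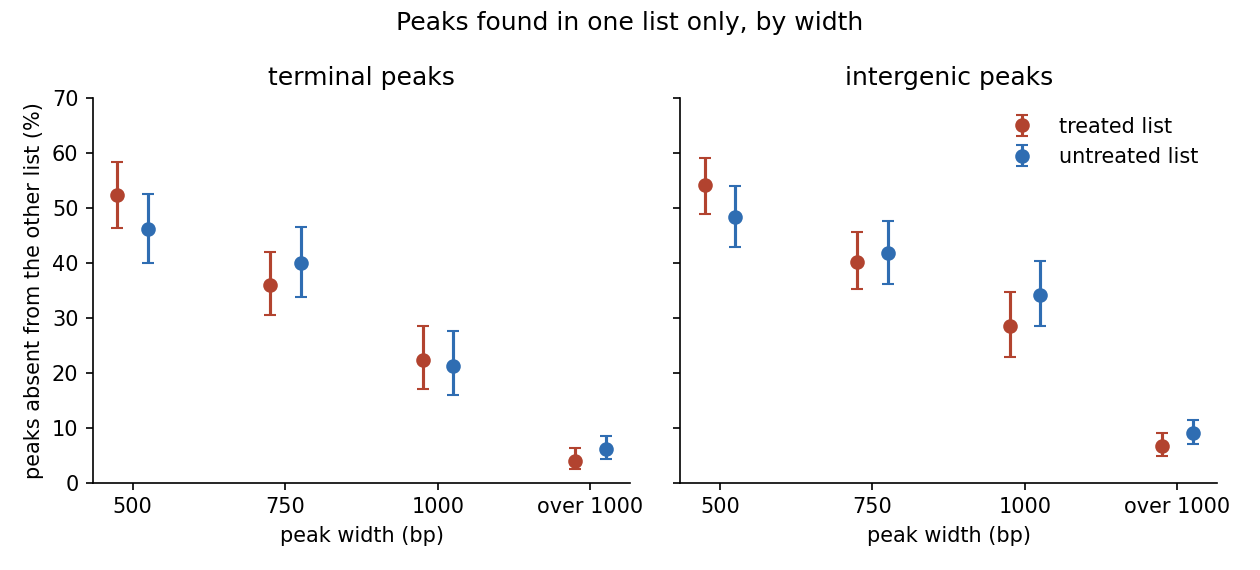
Share of terminal (left) and intergenic (right) peaks absent from the other list (y axis, percent) by peak width (x axis, bp), with 95% Wilson intervals. In both lists the share falls with width, for terminal treated peaks from 52.3% at 500 bp to 18 of 450 peaks over 1000 bp.

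The rule leaves peaks just inside it that adjoin an untreated peak. Of the 733 peaks, 31 touched a same-strand untreated peak without sharing a base, and 17 more lay within 250 bp of one. The first of the touching peaks in genome order were at or near ZBTB17 (chr1:16267652-16268651), PLPP3 (chr1:57043924-57044423) and PSRC1 (chr1:109819958-109820457). Just outside the rule, the smallest overlap was 250 bp, in 81 terminal or intergenic treated peaks, among them intergenic peaks near PRRC2C (chr1:171563463-171564712), LINC01355 (chr1:23603647-23604646) and the pseudogene PFN1P6 (chr1:148360073-148360822).

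Away from this edge, the nearest same-strand untreated peak was distant. The median distance was 45250 bp (95% interval 36750 to 53250 bp). An untreated peak lay within 5 kb of 18.6% of the treated-only peaks (15.9% to 21.5%) and more than 100 kb from 35.1%. Terminal peaks had such a neighbour within 5 kb more often than intergenic ones, 24.2% against 14.7%. Untreated-only peaks stood at a like distance from the treated list, with a median of 44534 bp and a neighbour within 5 kb in 21.5%. Of the 64 intergenic treated-only peaks with an untreated neighbour within 5 kb, 44 lay downstream of it on the common strand and 20 upstream. For the 69 untreated-only intergenic peaks the numbers were 43 and 26. Terminal peaks did not show this side, with 36 downstream and 36 upstream among treated-only and 30 and 47 among untreated-only peaks.

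Terminal treated-only peaks mostly followed the strand of the gene. On the strand of a transcript end lay 225 of 297 peaks, 75.8% (70.6% to 80.3%). The share was 81.3% of shared treated peaks and 79.9% of untreated-only peaks, and the difference was -5.51 percentage points from shared (-11.2 to -0.236) and -4.17 from untreated-only peaks (-10.9 to 2.72). Among peaks of 750 bp or more, 73.1% of treated-only and 82.4% of untreated-only peaks lay on that strand, a difference of -9.26 points (-18.2 to -0.117), and at 500 bp 78.8% and 76.4%. The end belonged to a protein-coding gene for 227 peaks (76.4%) and to a lncRNA gene for 49 (16.5%). Small nuclear RNA genes, whose ends held 30 of the 886 shared terminal peaks, had 0 of 297 treated-only and 2 of 269 untreated-only peaks. With 3 counts taken as the limit for a count of 0, in place of a Wilson interval, the treated-only share could be up to 1.01%. The midpoints lay a median of 601 bp beyond the transcript end (513 to 653 bp), against 589 bp in the shared set and 566 bp in the set found only without treatment. Many were still inside an annotated transcript, 62.6% of treated-only, 53.2% of shared and 61.0% of untreated-only terminal peaks. The difference from shared peaks was 9.47 points (2.96 to 15.7). It was 13.6 points at 750 bp or more (5.11 to 21.4) and -4.15 points at 500 bp (-15.6 to 7.57).

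The other 72 terminal peaks lay only on the strand opposite to the transcript end, and many of these were downstream of a neighbour. For 49 of the 72, or 68.1% (56.6% to 77.7%), a transcript of the peak's own strand ended within 5 kb upstream. Among shared terminal peaks of the opposite strand this share was 83.1%, and among untreated-only ones 64.8%. The widest terminal peak is such a case. It spans 2000 bp on the minus strand at the end of the plus-strand gene CHRNB1, a subunit of the muscle acetylcholine receptor, its midpoint is 2184 bp downstream of an annotated transcript end of the minus-strand gene ZBTB4, and an untreated peak lies 250 bp away. At the end of the minus-strand metalloprotease gene ADAM19, a plus-strand peak of 1500 bp (chr5:156821272-156822771) had its midpoint 1781 bp beyond an annotated transcript end of CYFIP2 and inside a longer CYFIP2 transcript.

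The next widest terminal peaks were on the strand of the gene. The peak at VPS26A, a retromer subunit, was 1750 bp wide (chr10:70933649-70935398) with its midpoint 356 bp past the end and an untreated peak 4500 bp away. At the arginine methyltransferase gene PRMT6 (chr1:107602611-107604110), a peak of 1500 bp was 1138850 bp from the nearest untreated peak of its strand. Peaks of 1500 bp were also found at RAB43, a small GTPase (chr3:128804937-128806436), and at the glycolytic enzyme gene GPI (chr19:34893183-34894682). The peak at GPI had an untreated peak 250 bp away, and that at RAB43 one 74250 bp away. The widest terminal peaks thus lay anywhere from 250 bp to 1138850 bp from an untreated peak.

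At 5 genes there was more than 1 terminal treated-only peak. At TSPAN17, a tetraspanin, neighbouring peaks of 750 bp had midpoints 1 bp and 998 bp past a transcript end, and an untreated peak of that strand was no nearer than 146500 bp. Their GC skew, which is the excess of G over C on the peak strand divided by the count of both bases, was 0.11 and -0.60, the latter the lowest of the 733 peaks. At SLC38A10, both peaks lay on the opposite strand, 3696 and 4571 bp beyond a transcript end of NDUFAF8. The others were WASH5P near the end of chromosome 19, the processed pseudogene ENSG00000186076 and the lncRNA gene ENSG00000291067. At WASH5P and ENSG00000186076, from 71.7% to 100% of the 31-base words of each peak occur more than once in the genome, so the reads could come from other copies.

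The terminal peaks with the highest GC skew were at genes of many kinds. At ZFP36L2, which encodes a protein that binds AU-rich mRNA, the skew was 0.30 (chr2:43448745-43449244). Values from 0.17 to 0.29 were found at MAGEA2B, TRO, SLC6A15, SEC63, MEX3B, TTYH3 and PRXL2B and at the lncRNA gene ENSG00000228521. SEC63 is part of the protein translocation machinery of the endoplasmic reticulum. The untreated list had a same-strand peak 500 bp from the TTYH3 peak and 750 bp from the SEC63 peak, but none within 67750 bp of the TRO peak. At MAGEA2B, 100% of the words occur elsewhere in the genome.

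Most intergenic treated-only peaks lay within 5 kb downstream of a same-strand transcript end, though a smaller share than of shared peaks. The share of intergenic sequence in general that lies so was not computed. A transcript of the same strand ended within 5 kb upstream of 273 of the 436 peaks, 62.6% (58.0% to 67.0%). This was the case for 78.6% of shared treated peaks (76.0% to 80.9%) and 69.6% of untreated-only peaks (65.0% to 73.8%). The distance was 1 to 2 kb for 29.1% of the treated-only and 49.6% of the shared peaks, and its median was 3258 bp (2871 to 3743 bp) and 2010 bp (1941 to 2105 bp). Of the genes that ended within 5 kb of the 273 peaks, 248 were protein coding.

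The contrast with shared peaks depended on width. Among intergenic peaks of 500 bp, 44.2% of treated-only and 39.6% of shared peaks were within 5 kb downstream of a same-strand end. Among those of 750 bp or more, the shares were 78.1% and 85.9%. Untreated-only peaks stood at 56.6% and 77.2%. At 500 bp the difference between treated-only and untreated-only peaks was -12.4 percentage points (-22.5 to -1.80).

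**Figure D3:**
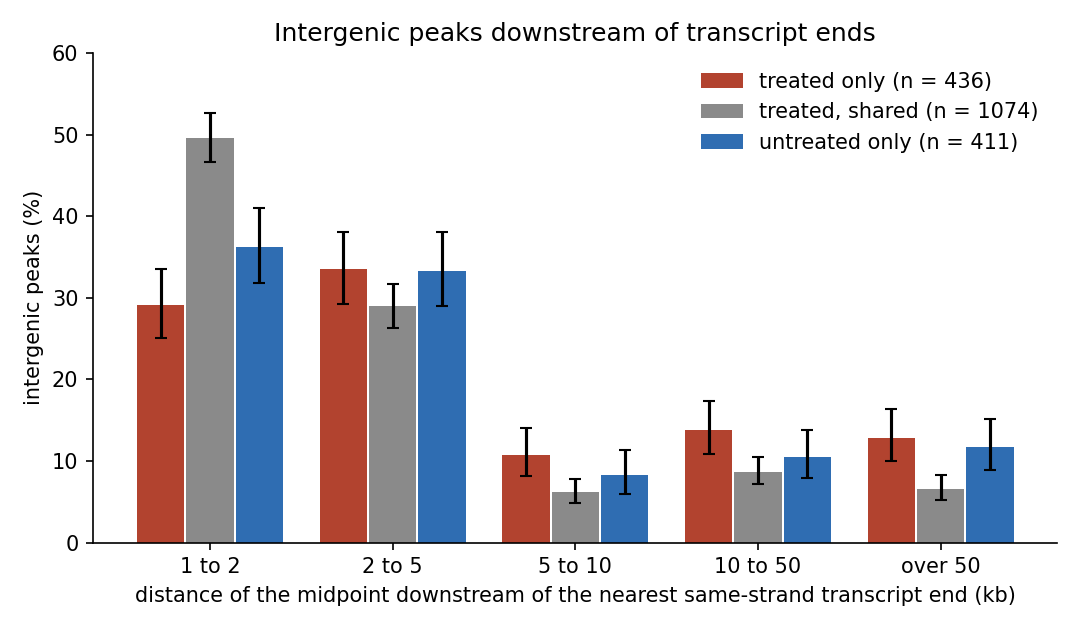
Intergenic peaks (y axis, percent of each set) by the distance of the midpoint downstream of the nearest transcript end on the same strand (x axis, kb), for treated-only, shared treated and untreated-only peaks, with 95% Wilson intervals. The bars at 1 to 2 kb are 29.1%, 49.6% and 36.3%, and those over 50 kb are 12.8%, 6.61% and 11.7%.

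The widest intergenic peaks all lay a short way past a gene. The widest of the 733 peaks, 2500 bp on the plus strand (chr1:113006708-113009207), was centred 1880 bp beyond the end of CTTNBP2NL. It held a G-quadruplex motif and was 206750 bp from an untreated peak. Its midpoint was nearer to a transcript of WNT2B, at 1205 bp, and the peak reached into that transcript. Downstream of EIF3F, a subunit of translation initiation factor 3, a peak of 1750 bp was centred 1555 bp past the end (chr11:8024089-8025838), and a terminal treated-only peak of 500 bp lay upstream of it. Peaks of 1750 bp followed the ubiquitin ligase genes HECTD3 (chr1:45465674-45467423) and PJA1 (chrX:68376081-68377830) at 1663 and 3738 bp. A peak of 2000 bp followed LRRC37B (chr17:30381060-30383059) at 1537 bp, with 76.1% of its words repeated in the genome, and 1 of 1500 bp followed ZYG11B at 1916 bp (chr1:53294174-53295673). In all, 14 pairs of these peaks were less than 5 kb apart on a strand, and no group of 3 or more was.

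A smaller set of intergenic peaks had no gene end behind them. For 116 of the 436 peaks no transcript of the same strand ended within 10 kb upstream, and 102 of these also lacked a transcript start of the opposite strand within 5 kb behind them. Of all 436 peaks, 10 were more than 50 kb from any transcript. The 116 peaks were GC-rich, with a median GC content of 56.5% (53.2% to 58.2%) against 47.8% (46.6% to 48.8%) for the 320 with an end within 10 kb. Their CpG ratio, the number of CpG observed over that expected from C and G, was 0.556 (0.500 to 0.632) against 0.264 (0.242 to 0.274).

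These distant peaks were also narrower and more repetitive. Their median width was 500 bp, against 750 bp, and 43 of the 116 (37.1%) had over 50% of their words repeated in the genome, against 36 of 320. The contrast was not particular to treated cells. Distant untreated-only peaks had a GC content of 50.8%, a CpG ratio of 0.421 and 39.6% repetitive peaks, and distant shared peaks had 52.9%, 0.517 and 24.4%. The part of reads from repeated copies in these peaks was not tested.

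**Figure D4:**
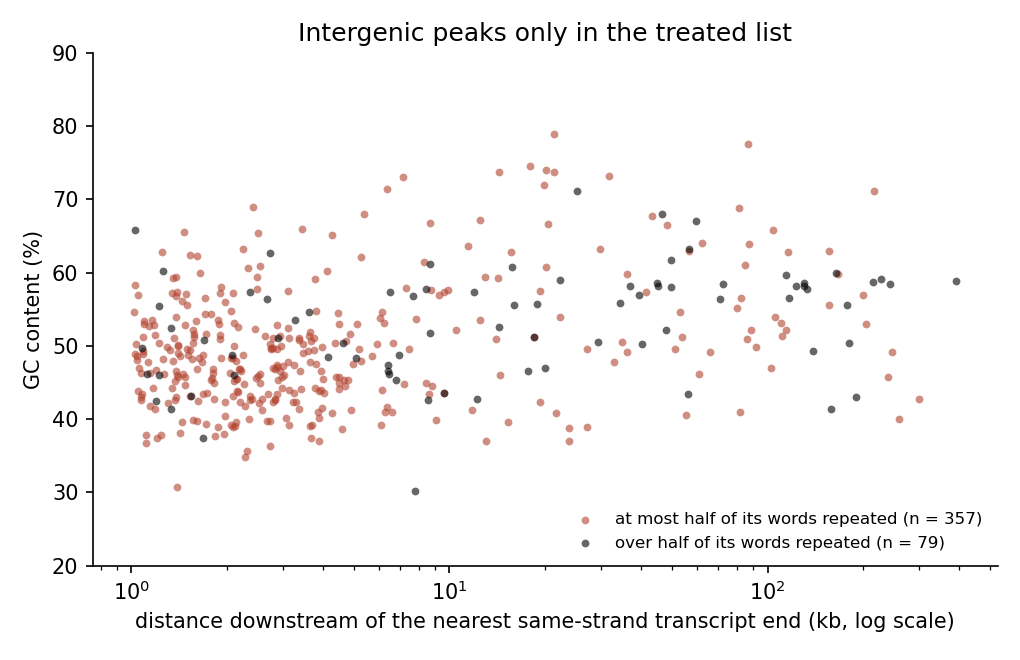
The 436 intergenic treated-only peaks by distance downstream of the nearest same-strand transcript end (x axis, kb, log scale) and GC content (y axis, percent), with peaks in which over 50% of 31-base words recur in the genome in black. Peaks within 10 kb of an end have a median GC content of 47.8% and those farther away 56.5%, with more of the repetitive peaks among the latter.

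Telomeric repeats appeared in 3 intergenic treated-only peaks. Each is 500 bp wide, holds 18 to 39 copies of TTAGGG on the peak strand and none of CCCTAA, and lies within 9809 bp of the end of the assembled chromosome, on chromosomes 10 (chr10:135524467-135524966), 15 and 21 (chr21:48119587-48120086). On chromosomes 10, 15 and 21, 43.8%, 48% and 38.2% of the bases of these peaks are unknown (N) in the reference. Of their words, 65.7%, 93.5% and 84.6% occur more than once in the genome, so the reads could come from other copies. Peaks of all locations were searched for 10 or more copies of either TTAGGG or CCCTAA on the peak strand. The search found 15 peaks in the treated and 10 in the untreated list, 9 in each shared, all with TTAGGG and with at most 1 copy of CCCTAA. Of the 411 untreated-only intergenic peaks, 1 held such repeats, and the interval of the difference in share included 0.

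The base composition of the treated-only peaks was shifted toward C on the peak strand. The median GC skew was -0.03 at transcript ends (-0.04 to -0.01) and -0.02 between genes (-0.04 to -0.02). For both locations together it was -0.01 in shared treated peaks (-0.01 to 0) and 0.01 in untreated-only peaks (0.00 to 0.02). A positive skew was found in 39.2% of treated-only, 47.3% of shared and 54.1% of untreated-only peaks of both locations together. The difference between treated-only and untreated-only peaks was -15.0 percentage points (-20.0 to -9.77). Among peaks of 500 bp it was -10.8 points (-18.6 to -2.83), and there it came from intergenic peaks, with 32.7% against 51.3%, while terminal peaks stood at 43.1% and 42.7%. At 750 bp or more both locations differed, by -18.5 points for terminal (-28.8 to -7.53) and -16.0 points for intergenic peaks (-24.5 to -7.23). The sets differed more in C than in G. G made up a median of 24.8% of treated-only and 24.4% of untreated-only sequence, and C 26.0% and 23.6%.

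The same shift was present elsewhere in the lists and was not particular to transcript ends or intergenic sequence. Positive skew was less frequent in treated-only than in untreated-only peaks by 10.5 points at transcript ends, 17.9 points between genes, 14.9 points in gene bodies and 15.4 points in promoters, and the intervals excluded 0 in each class. The median GC content of treated-only peaks was also higher in each class, at 52.8% against 49.6% for terminal and 49.5% against 47.2% for intergenic peaks. Whether the lists differ in this way through the treatment, the libraries or the peak calling cannot be told apart with 1 list per condition.

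**Figure D5:**
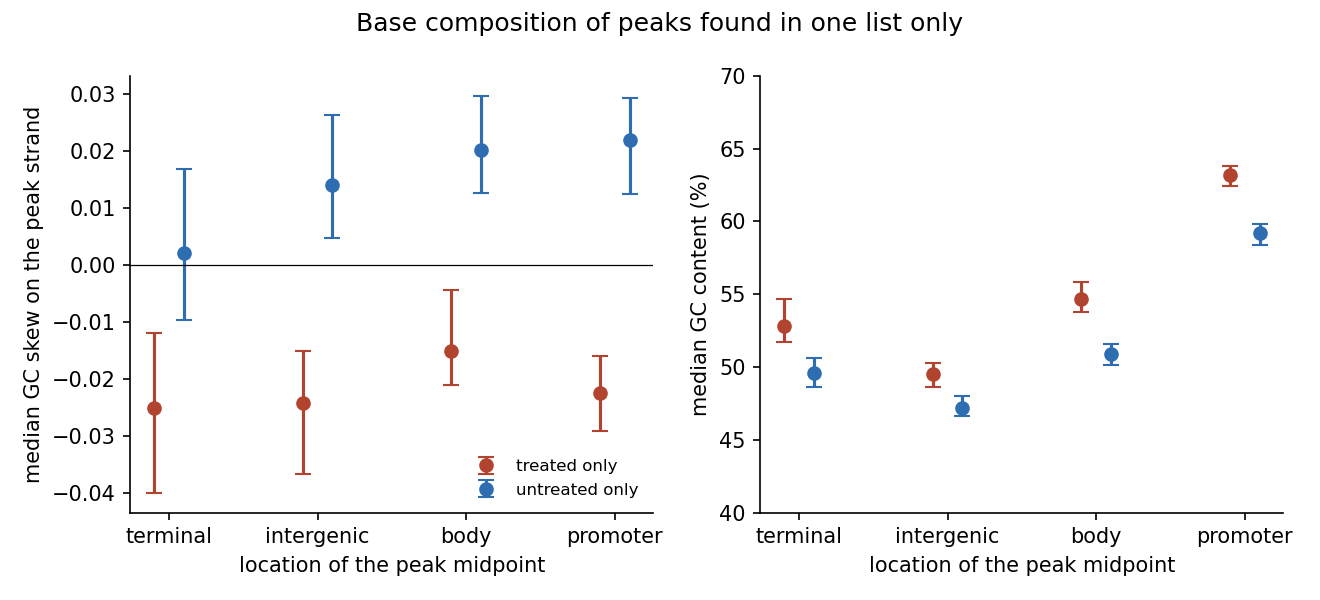
Median GC skew on the peak strand (left, 0 marked by a line) and median GC content (right, percent, axis from 40) of treated-only and untreated-only peaks in each location class, with 95% intervals from order statistics. Treated-only peaks lie below 0 in GC skew and above the untreated-only peaks in GC content in all classes.

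Most treated-only peaks held a run of G, and few held a G-quadruplex motif. GGGG was on the peak strand of 81.4% of treated-only, 91.8% of shared and 82.8% of untreated-only peaks of both locations, and of 91.7% of all treated peaks. The G-quadruplex motif, 4 runs of at least 3 G with loops of 1 to 7 bases, was present on the peak strand of 12.5% of terminal (9.17% to 16.7%) and 6.88% of intergenic treated-only peaks (4.86% to 9.65%). Shared peaks held it in 17.3% and 12.1%, but at 500 bp the shares were 10.4% for treated-only and 10.5% for shared peaks of both locations. At 750 bp or more these shares were 8.06% and 15.1%, a difference of -7.07 points (-9.99 to -3.57). Of all treated peaks of 500 bp, 16.3% held the motif. Untreated-only peaks held it on the peak strand in 7.43% of terminal and 6.81% of intergenic cases. The terminal difference was 5.02 points (0.0244 to 9.98), and 7.50 points at 500 bp (-0.334 to 15.0). On the strand opposite to the peak, it was found in 15.0% of treated-only, 18.4% of shared and 9.26% of untreated-only peaks. Of all treated peaks, 26.6% held it there. Treated-only peaks differed by 5.74 points from untreated-only (2.34 to 9.13) and by -3.41 points from shared peaks (-6.40 to -0.188). The polyadenylation signal AATAAA was on the peak strand of 25.9% of terminal treated-only and 40.7% of shared peaks, and of 16.1% and 17.6% at 500 bp, against 9.99% of all treated peaks of 500 bp. Of untreated-only terminal peaks of all widths 29.7% held it, and treated-only peaks differed by -3.81 points (-11.2 to 3.55). Between genes it was found in 23.9% of treated-only and 38.2% of untreated-only peaks, a difference of -14.3 points (-20.4 to -8.13). At 500 bp this difference was -4.47 points (-12.9 to 3.67), and at 750 bp or more -18.3 points (-26.5 to -9.73).

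Sequence present more than once was frequent. Over 50% of the words were repeated in 15.2% of terminal and 18.1% of intergenic treated-only peaks, against 9.71% and 11.8% of shared peaks and 12.3% and 18.0% of untreated-only peaks. At matched width the contrast with shared peaks was smaller for intergenic peaks, with 27.1% against 25.4% at 500 bp and 10.5% against 9.28% at 750 bp or more. For terminal peaks it was 19.0% against 10.4% at 500 bp, a difference of 8.58 points (-0.119 to 17.1). At 750 bp or more, terminal peaks stood at 11.9% and 9.47%. At these widths the intervals of the differences from shared peaks included 0 for both locations. An example is the 5S rRNA gene cluster of chromosome 1, where neighbouring peaks of 500 bp on the minus strand lay next to RNA5S17, the nearer with its midpoint 276 bp past the end. Without these peaks 609 of the 733 remain.

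Genes of listed families were compared with all coding genes for peaks at or beyond their ends. Of 20090 protein-coding genes, 415 (2.07%) had such a peak in the terminal window or within 5 kb downstream on the same strand, 1326 (6.60%) had a shared one and 441 (2.20%) an untreated-only one. Of 88 cytosolic ribosomal protein genes, 35 had a shared peak, 1 an untreated-only peak and 1, RPL34, a treated-only peak, centred 4853 bp past its end and 500 bp from an untreated peak. None of the 64 replication-dependent histone genes had a treated-only peak, and 13 had a shared one. The treated-only counts of both families are close to the 2.07% of all coding genes. Among heat shock protein genes, 2 of 43 had a treated-only peak. At HSPA9, the mitochondrial Hsp70, it lay 423 bp past the end (chr5:137888522-137889521), and at HSPB1 1052 bp.

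Lists of genes whose products act on gene ends and R-loops are short, and their treated-only counts do not stand apart from the share of all coding genes. None of the 19 cleavage, polyadenylation and termination factor genes had a treated-only peak, while 5 had a shared peak, among them XRN2, the exonuclease that degrades RNA behind the polymerase, and 3 an untreated-only peak. ACTB, ENSA, GEMIN7 and AKIRIN1, long used to study R-loops at pause sites, had no treated-only peak, and ACTB and AKIRIN1 had a shared one. Of 16 R-loop processing genes, THOC2, a subunit of the THO mRNA export complex, was followed by a treated-only peak of 1250 bp, 4599 bp past its end (chrX:122729188-122730437).

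In other families up to 13 genes had a treated-only peak. Zinc-finger genes had 13 of 509 (2.55%), of which ZNF101, ZNF211, ZNF337, ZNF845 and ZNF875 had a terminal peak. The largest of these, at ZNF875, was 1500 bp wide (chr19:37855223-37856722) and 29250 bp from an untreated peak. Of 78 mitochondrial ribosomal protein genes, 3 had a treated-only peak, that of MRPL37 being terminal (chr1:54687174-54687673). The small nucleolar RNA host genes SNHG20 and SNHG26, 2 of 29, had terminal peaks of 1000 bp. Of 14 immediate early genes, JUND, a subunit of the transcription factor AP-1, had a terminal peak (chr19:18390345-18390844), whose midpoint lay 91 bp before the end of a transcript, while 4 others had shared peaks. Of 39 proteasome subunit genes, PSMD1 had a treated-only peak, 3467 bp past its end and 500 bp from an untreated peak.

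The share of terminal peaks whose gene had a promoter R-loop was alike, whichever list held the terminal peak. Promoter peaks of the untreated list were counted on either strand, and terminal peaks on either strand of the gene. Of the 227 treated-only peaks at coding-gene ends, 30.4% had such a promoter peak at the gene. The share was 31.3% for shared and 31.4% for untreated-only peaks. Of all protein-coding genes, transcribed or not, 22.4% had one.

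The treated-only peaks were spread over all chromosomes analysed, from 7 on chromosome 18 to 89 on chromosome 1. They made up from 15.4% (10.1% to 22.9%) of terminal and intergenic treated peaks on chromosome 16 to 38.4% (28.8% to 48.9%) on chromosome 8. Treated-only peaks outnumbered untreated-only peaks on 15 of 23 chromosomes and were fewer on 7. The excess was 60 against 44 on chromosome 19, 50 against 34 on chromosome 17 and 33 against 18 on chromosome 8, while chromosome 9 had 27 against 39. No chromosome was free of such peaks, and none held most of them.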

How the data were processed

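The deposited files used were 2 lists of R-loop regions, 1 for untreated and 1 for treated cells, with chromosome, start, end and strand and no score or other measured value. Per the labels and the methods, the authors ran Trim Galore on the spKAS-seq reads, mapped these to hg19 in Bowtie2, and used samtools for sorting and Picard against duplicates. R-loops were then called from both replicates by a published procedure. Tool versions are not given in the sources used here.

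The lists held 10231 untreated and 11085 treated peaks, of which 10169 and 11021 lay on chromosomes 1 to 22 and X. Overlap meant at least 1 bp on the same strand. Midpoints were classed in the order promoter, terminal, gene body and intergenic with GENCODE v44lift37. Peaks named are the widest, those of highest GC skew, genes with more than 1 terminal peak, and members of listed gene families. The members and lists were chosen with earlier results of these data known. No p-value was computed, because each condition has 1 list. Shares have Wilson intervals, differences Newcombe intervals and medians order-statistic intervals, all at 95% and covering counting error only. Against untreated-only peaks, 71 differences were computed at all widths, and 21 intervals excluded 0. Against shared peaks, 47 of 71 did. The same 71 were computed at 500 bp, where 9 and 15 intervals excluded 0, and at 750 bp or more, where 18 and 39 did. Some differences from shared peaks, such as contact with a peak of the other list, were fixed by the choice of peaks. Differences from both sets in the share of coding genes with an untreated peak on their strand were fixed in part, as the compared peaks could themselves count. The 71 also hold opposite measures, such as same and other strand, and width classes that cannot differ at 500 bp. They are thus not 71 separate comparisons. The share of 31-base words that recur on either strand was counted in GRCh37. Scripts were tested on simulated data, and overlaps were checked against bedtools 2.31.1. Scripts ran in Python 3.11.15 with pandas 2.3.3, numpy 2.4.6, pysam 0.24.0, matplotlib 3.10.9 and scipy 1.17.1. Alternatives in gap, strand, windows, width, transcripts and motif loops were tried. Some sequences and genes are not reported here.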

Additional observations from a re-analysis of the deposited data

How the results depend on the processing

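No paired analysis was possible because the peaks of a condition stand in 1 list without replicates, and no replicate could be left out for the same reason. Of 51 alternatives, 33 left their value within 1.5 times for a count or within its counting interval otherwise, 18 moved it and none reversed it. With the terminal window extended to 5000 bp there were 1137 treated-only peaks, and 27.8% of terminal and 42.7% of intergenic treated peaks were unmatched. With peaks of 750 bp or more only, the count was 397, the shares 17.4% and 20.8%, and 78.1% of intergenic peaks followed a same-strand end within 5 kb. Calling peaks shared across a gap of up to 1000 bp gave shares of 21.0% and 26.4%. The share downstream of a same-strand end was 41.4% with coding transcripts only, 29.1% within 2 kb and 73.4% within 10 kb. Chosen after seeing the data, it was 70.3% without peaks of mostly repeated words and 44.2% at 500 bp. Median GC skew was -0.037 at 500 bp. The G-quadruplex share was 15.0% with loops of up to 12 bases. The share near an untreated peak was 12.7% within 1 kb and 25.8% within 10 kb. Peak height and depth are unknown, so a peak absent from a list may have been just under the calling threshold, which was not tested.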
